A study of Mus musculus with 57 samples.

Results

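The regions described here are the 1098 stretches of the mouse genome that carried a listed H3K4me3 peak in Wnt3KO epiblast stem cells (EpiSCs) after 72 h of CHIR99021 ("Chiron") and none at 0 h. They were chosen from the 16746 regions of the 72 h list as those that shared no base with a region of the 0 h list or of either input list, and they made up 6.56% of that list. Because H3K4me3 at 72 h and at 0 h and the inputs chose the regions, their H3K4me3 at those times is a description and was not tested. In all, 64 of the 1098 lay inside the 4 Hox clusters and 1034 outside them. The other regions of the 72 h list were 15489 that overlapped a 0 h region and 159 that overlapped an input region, 22 of which overlapped no 0 h region.

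EpiSCs are cell lines grown from the epiblast of pre-streak embryos, here kept in Activin A and basic Fgf with IWP2 (2 µM), which blocks the secretion of Wnt proteins. The protocols have IWP2 in the culture until stimulation, while the labels of the Wnt3KO H3K4me3 and H3K27ac samples at 0 h give no treatment, so its presence there is not certain. Cells were stimulated with Chiron (3 µM), an inhibitor of GSK3 that switches on the Wnt pathway inside the cell, or with Wnt3a protein (125 ng/mL). The Wnt3KO cells lack Wnt3, and ChIP-seq lists were used for H3K4me3, H3K27ac and H3K27me3 before stimulation (0 h) and after 6 h, 12 h and 72 h of Chiron, and for Ring1b at 0 h, with Wnt3a for 5 h and with Chiron for 72 h. H3K27me3 was also listed at 5 h of Wnt3a. Wild-type (wt) EpiSCs gave H3K27ac at 24 h of Chiron and at 0 h, and ATAC-seq at 48 h of Chiron and at 0 h. ATAC-seq was also done on wt embryos of embryonic day 6.0 (E6.0) and 7.2 (E7.2) and on posterior parts at E7.5. Stages are given as in the labels, and the names of the peaks in some of these lists carry other stage names. Among these lists Wnt3KO and wt cells never had the same mark at the same time under stimulation, and a difference between their lists is also a difference between genotypes. The labels give neither the number of cell clones nor the number of embryos pooled. Cell identity and the loss of Wnt3 were not checked here, since the files hold no expression values. Groups with 2 libraries were Ring1b and H3K27me3 at 0 h, H3K27ac in wt cells after 24 h, and ATAC-seq in each of the E6.0 and E7.2 stages. Every other group had 1 library and no replicate error, and the labels do not say whether 2 libraries of a group came from separate cultures or litters.

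H3K4me3 is the histone mark of active or poised promoters. Polycomb repressive complexes keep developmental genes silent: PRC1, of which Ring1b is a subunit, ubiquitinates histone H2A, and PRC2 sets H3K27me3. H3K27ac marks promoters and enhancers in use, and ATAC-seq lists chromatin that a transposase can reach. Hox genes set position along the body axis. They lie in 4 clusters and are activated in the posterior embryo in the order in which they lie, from the 3′ end to the 5′ end of a cluster, and Wnt signals start that process.

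A region of another list was counted as present when it shared at least 1 bp with the H3K4me3 region. Shares carry 95% Wilson intervals and counts 95% exact Poisson limits; both cover counting error alone. Depth is unknown, since no read counts are in the lists, and a region absent from a list may have been missed. List lengths were 16287 to 17714 regions for H3K4me3, 604 to 2244 for Ring1b, 1012 to 6236 for H3K27me3, 10161 to 29056 for H3K27ac and 33881 to 72433 for ATAC-seq.

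The mm9 genome of the lists was not at hand, so the sequence of the regions themselves is not shown. Promoters of 4 genes with a new region at or just before their start are shown instead, and searched for the binding motif of the TCF and LEF factors, the nuclear effectors of the Wnt pathway that Chiron and Wnt3a act on. The sequences are RefSeq's for GRCm38.p6, another build than that of the lists. Each runs 5′ to 3′ on the gene's strand over 250 bases before and 50 bases after the start. Capitals mark the core motif CTTTGA or its reverse complement TCAAAG, searched on both strands with overlaps allowed. The windows are chr12:11208899-11209198 on the minus strand (Msgn1), chr11:96365508-96365807 on the plus strand (Hoxb1), chr2:70474673-70474972 on the plus strand (Sp5) and chr17:8434173-8434472 on the plus strand (T).
Msgn1: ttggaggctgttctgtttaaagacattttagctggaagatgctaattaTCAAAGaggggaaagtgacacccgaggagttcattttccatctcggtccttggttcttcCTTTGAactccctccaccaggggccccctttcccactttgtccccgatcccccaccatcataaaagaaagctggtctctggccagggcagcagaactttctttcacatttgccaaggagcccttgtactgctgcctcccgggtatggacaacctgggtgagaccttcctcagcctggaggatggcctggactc
Hoxb1: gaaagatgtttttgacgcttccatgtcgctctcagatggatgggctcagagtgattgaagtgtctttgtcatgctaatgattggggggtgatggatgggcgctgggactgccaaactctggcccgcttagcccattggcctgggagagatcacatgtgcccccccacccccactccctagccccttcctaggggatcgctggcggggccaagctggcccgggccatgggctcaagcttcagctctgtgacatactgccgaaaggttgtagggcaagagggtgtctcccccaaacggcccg
Sp5: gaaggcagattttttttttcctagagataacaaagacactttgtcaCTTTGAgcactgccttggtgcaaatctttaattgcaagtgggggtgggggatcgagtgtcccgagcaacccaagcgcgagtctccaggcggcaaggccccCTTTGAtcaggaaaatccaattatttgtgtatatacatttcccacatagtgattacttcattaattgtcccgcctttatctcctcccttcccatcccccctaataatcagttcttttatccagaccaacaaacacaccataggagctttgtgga
T: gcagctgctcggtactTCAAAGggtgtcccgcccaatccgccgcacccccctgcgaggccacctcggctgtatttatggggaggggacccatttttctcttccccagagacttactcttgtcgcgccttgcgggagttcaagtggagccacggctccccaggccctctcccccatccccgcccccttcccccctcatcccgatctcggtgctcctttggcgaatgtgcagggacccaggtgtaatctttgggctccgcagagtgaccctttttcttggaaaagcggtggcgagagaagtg

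The 4 were picked by hand with the regions known. The motif was in 5257 of 32851 RefSeq promoters of that length (16.0%). It occurred 2 times in the Msgn1 window, 2 times in that of Sp5 and once in that of T, and these letters are not in the Hoxb1 window. Of the 14 genes of the posterior embryo and the Wnt response described further on, 11 were in the promoter table and 4 of these held the motif. The 4 windows held 4 (Msgn1), 10 (Hoxb1), 6 (Sp5) and 17 (T) CG dinucleotides, against a median of 7 over all promoters. Each match is a description and not a binding site.

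New regions were short and weak beside regions that were already listed. Their median length was 416 bp (quartiles 337 and 567.75 bp), against 1292 bp for the regions listed at both times. The authors' fold enrichment at the summit, which is signal over local background and was compared only within the 72 h list, had a median of 5.82 in new regions, against 21.7 in regions listed at both times. The 768 regions of the 0 h list that were absent at 72 h were also short, with a median of 408 bp. Shortness was therefore not particular to new regions. Their median fold was 6.08 in the 0 h list, a value given without comparison between lists. Only 34 new regions had a fold above 10, all outside the Hox clusters, against 12657 of the 15489 regions listed at both times. Inside the clusters the new regions had a median length of 585.5 bp, against 410 bp outside. Their median fold was 3.60, against 5.82 outside, while their median −log10 p was 16.9, against 11.8 outside. The 64 Hox regions therefore combined a lower fold with a smaller p-value. The 20 Hox regions that were already listed at 0 h also had a low median fold, 5.18, against 21.7 over all regions listed at both times. Nearly all new regions, 97.5%, had a −log10 q of at least 5, against 99.9% of regions listed at both times. The weakest new region had a −log10 p of 6.04 and the strongest 99.6.

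**Figure D1:**
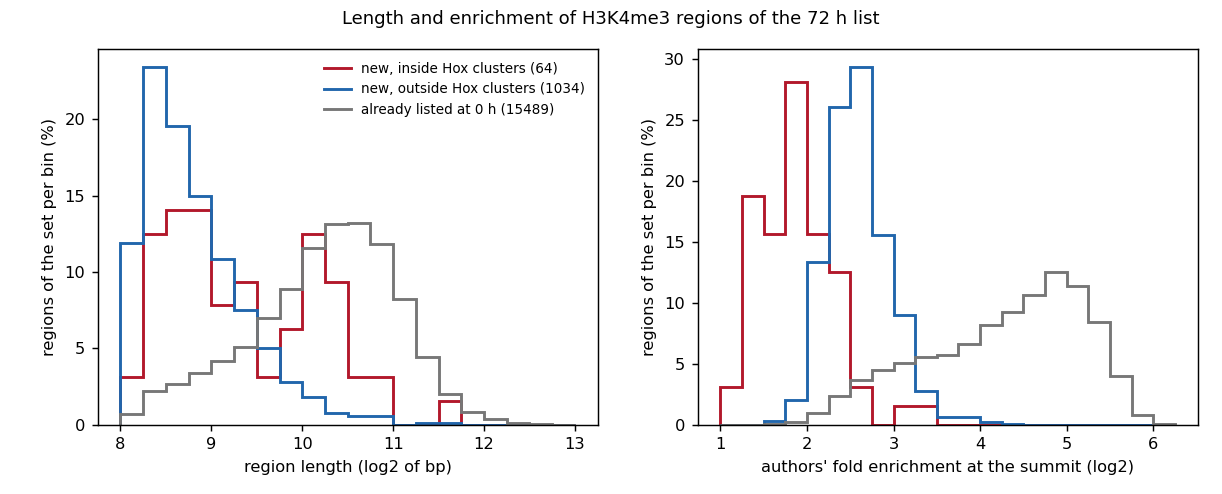
Length (left, log2 of bp) and the authors' fold enrichment at 72 h (right, log2) of new H3K4me3 regions inside the Hox clusters (red), new regions outside (blue) and regions already listed at 0 h (grey), each as the percentage of its set per bin. New regions lie at short lengths and low folds, and the Hox ones have the lowest folds of the 3 sets (median 3.60, against 5.82 outside and 21.7 for regions already listed).

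Close to the boundary of the rule, the 3 smallest gaps between a new region and a 0 h region were 1, 2 and 5 bp, and the 3 smallest overlaps among regions listed at both times were 12, 26 and 29 bp. A gap of at most 100 bp was found for 57 new regions, and a longest overlap of at most 100 bp for 25 regions on the other side. In the opposite direction, 768 regions of the 0 h list (715 to 824, 4.72% of that list) were absent from the 72 h list and from the inputs, against 1098 (1034 to 1165) new ones. The count of new regions was 700 when those within 1 kb of a 0 h or input region were left out, and 608 when regions of a list within 1 kb of each other were first merged.

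Most new regions were not yet listed at 12 h. At 6 h, 173 of the 1098 were listed (15.8%, interval 13.7 to 18.0%), and at 12 h 240 (21.9%, 19.5 to 24.4%). Over all 72 h regions the shares were 85.4% at 6 h and 87.1% at 12 h, and among regions listed at 0 h they were 90.4% and 91.9%. By their pattern, 116 new regions were listed at both early times, 124 at 12 h alone, 57 at 6 h alone and 801 at neither (73.0%, 70.2 to 75.5%). The 57 listed at 6 h and missed at 12 h show that a region can drop out of a list between times. Split into 4 classes by their −log10 p at 72 h, new regions had shares at 12 h of 14.9% in the lowest class, 19.8% and 23.4% in the next classes and 28.3% in the highest. Peak names place the lists of 6 h and 12 h in a different folder of the authors' processing than those of 0 h and 72 h, and the part of that in these shares was not tested.

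Inside the Hox clusters 2 of the 64 new regions were listed at 6 h (3.12%, 0.861 to 10.7%) and 9 at 12 h (14.1%, 7.58 to 24.6%), against 171 (16.5%, 14.4 to 18.9%) and 231 (22.3%, 19.9 to 25.0%) of the 1034 outside. The intervals were apart at 6 h and overlapped at 12 h. Of the 768 regions that were lost by 72 h, 32.2% were still listed at 6 h and 34.2% at 12 h.

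Before stimulation, Ring1b lay on about 1 in 10 new regions. The first 0 h library overlapped 107 of them (9.74%, 8.13 to 11.6%) and the second 101 (9.20%, 7.63 to 11.1%), a mean of 9.47% ± 0.386 (SD, n = 2 libraries). Regions listed at both times reached 3.90% ± 0.457 (SD, n = 2), and all 72 h regions 4.59% in the first library and 5.08% in the second. New regions exceeded regions listed at both times by 5.57 points ± 0.843 (SD, n = 2), more than the spread between libraries. The 768 regions lost by 72 h had shares of 11.3% (9.28 to 13.8%) and 9.51% (7.63 to 11.8%). The excess was therefore not particular to new regions. In both libraries lay 78 new regions, and in either 130. With the lists of every mark cut to the length of the shortest, 604 regions for Ring1b, 869 regions were new. Their mean share was 4.66%, and the share of regions listed at both times was not computed under that cut.

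Over whole regions, H3K27me3 at 0 h differed between new regions and regions listed at both times by less than the spread of the libraries, while at the summit new regions had the higher share. It was listed on 85 new regions in the first library (7.74%) and on 105 in the second (9.56%), a mean of 8.65% ± 1.29, against 9.22% ± 2.83 of regions listed at both times (SD, n = 2). The difference of −0.564 points had an SD of 1.54 between libraries. At the 72 h summit alone, a single base in every region whatever its length, H3K27me3 was on 6.01% of new regions (4.75 to 7.58%) in the first library and 8.47% (6.96 to 10.3%) in the second, against 2.62% (2.38 to 2.88%) and 5.24% (4.90 to 5.60%) of regions listed at both times. By overlap of at least 1 bp over whole regions, all 72 h regions stood at 7.80% and 11.6%. On that whole-region measure the 768 regions lost by 72 h had a higher share in each library, 15.6% and 23.0%. In total 161 new regions (14.7%, 12.7 to 16.9%) had Ring1b or H3K27me3 in at least 1 library at 0 h and 937 had neither, and regions listed at both times had a share of 13.1% for the same measure.

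Both Polycomb marks were listed on few new regions after 72 h of stimulation. Ring1b was listed on 98 new regions after 5 h of Wnt3a (8.93%) and on 15 after 72 h of Chiron (1.37%, 0.830 to 2.24%). All 72 h regions, which include those that overlap an input region, stood at 8.07% and 1.79%. Regions listed at both times stood at 7.38% and 1.21% (1.05 to 1.39%), so new regions did not have the lower share. At the summit alone the 72 h Ring1b list was on 9 of 1098 new regions (0.432 to 1.55%). It was on 48 of 15489 regions listed at both times (0.234 to 0.411%). Of the 78 new regions with Ring1b in both 0 h libraries, 66 were listed after 5 h of Wnt3a (84.6%, 75.01 to 91.0%) and 12 at 72 h (15.4%, 9.03 to 24.99%). Among 425 regions listed at both times with Ring1b in both 0 h libraries, 408 were listed after 5 h (96.0%, 93.7 to 97.5%), and these intervals did not overlap. Their 72 h share was 13.9% (10.9 to 17.5%), and the intervals overlapped. The 72 h Ring1b list held 604 regions, against 1605 and 1783 at 0 h, and the part of that difference in these shares was not tested.

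H3K27me3 was listed on 25 new regions after 5 h of Wnt3a (2.28%), on 32 at 6 h of Chiron (2.91%), on 34 at 12 h (3.10%) and on 29 at 72 h (2.64%, 1.85 to 3.77%), while all 72 h regions stood at 2.02%, 3.49%, 4.44% and 5.95%. At the 72 h summit alone, these lists were on 1.28%, 1.46%, 1.37% and 1.46% of new regions. Regions listed at both times stood at 0.258%, 0.684%, 1.08% and 1.12% at the summit, so new regions did not have the lower share there. Of the 78 new regions with H3K27me3 in both 0 h libraries, 20 were listed at 72 h (25.6%, 17.3 to 36.3%), against 437 of 1026 regions listed at both times (42.6%, 39.6 to 45.6%). These intervals did not overlap. After 5 h of Wnt3a the order was the opposite, with 25 of the 78 (32.1%, 22.7 to 43.0%) against 189 of the 1026 (18.4%, 16.2 to 20.9%). Both comparisons count any shared base, and new regions as a whole were shorter (median 416 bp, against 1292 bp). The part of length in these shares was not tested. With Chiron for 6 h the shares were 34.6% of the 78 and 36.1% of the 1026, and for 12 h 37.2% and 44.2%, with intervals that overlapped at each time.

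H3K27ac was rare on new regions in the Wnt3KO cells and common in stimulated wt cells. In Wnt3KO cells the 0 h list overlapped 95 new regions (8.65%, 7.13 to 10.5%), the 6 h list 56 (5.10%), the 12 h list 75 (6.83%) and the 72 h list 63 (5.74%, 4.51 to 7.27%). All 72 h regions stood at 53.5%, 43.5%, 50.2% and 49.1% at those times. At 72 h, when H3K4me3 was listed, the share of new regions with H3K27ac had an interval that still overlapped those at 0 h, 6 h and 12 h. In wt cells the 24 h libraries overlapped 517 (47.1%) and 482 (43.9%) new regions, a mean of 45.5% ± 2.25 (SD, n = 2), against 194 (17.7%, 15.5 to 20.0%) at 0 h. All 72 h regions stood at 81.9% and 80.4% at 24 h, and 51.0% at 0 h. The 24 h lists held 29056 and 27422 regions, against 14453 at 0 h and 10161 in Wnt3KO cells at 72 h. When the lists of every mark were cut to the length of the shortest, 10161 regions for H3K27ac, 869 regions were new. Their mean share at 24 h came to 17.2%. Of the 1098 new regions, 452 (41.2%, 38.3 to 44.1%) were in both 24 h libraries. Of these, 282 were not in the wt 0 h list (25.7% of the new regions, 23.2 to 28.3%). Among regions listed at both times the same shares were 81.3% and 28.4% (27.7 to 29.2%).

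New regions with Ring1b at 0 h carried acetylation less often outside the Hox clusters and not detectably so inside. Of the 130 with Ring1b in either 0 h library, 18 (13.8%, 8.94 to 20.8%) had H3K27ac in both wt 24 h libraries, against 430 of the 937 with neither Polycomb mark at 0 h (45.9%, 42.7 to 49.1%). Their share listed for H3K4me3 at 12 h was alike, 23.8% (17.3 to 31.9%) against 21.7% (19.1 to 24.4%), with intervals that overlapped. Outside the clusters 11 of 101 regions with Ring1b had H3K27ac in both 24 h libraries (10.9%, 6.19 to 18.5%), against 423 of 904 with neither mark (46.8%, 43.6 to 50.1%). Inside, the counts were 7 of 29 (24.1%, 12.2 to 42.1%) and 7 of 33 (21.2%, 10.7 to 37.8%), with intervals that overlapped.

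**Figure D2:**
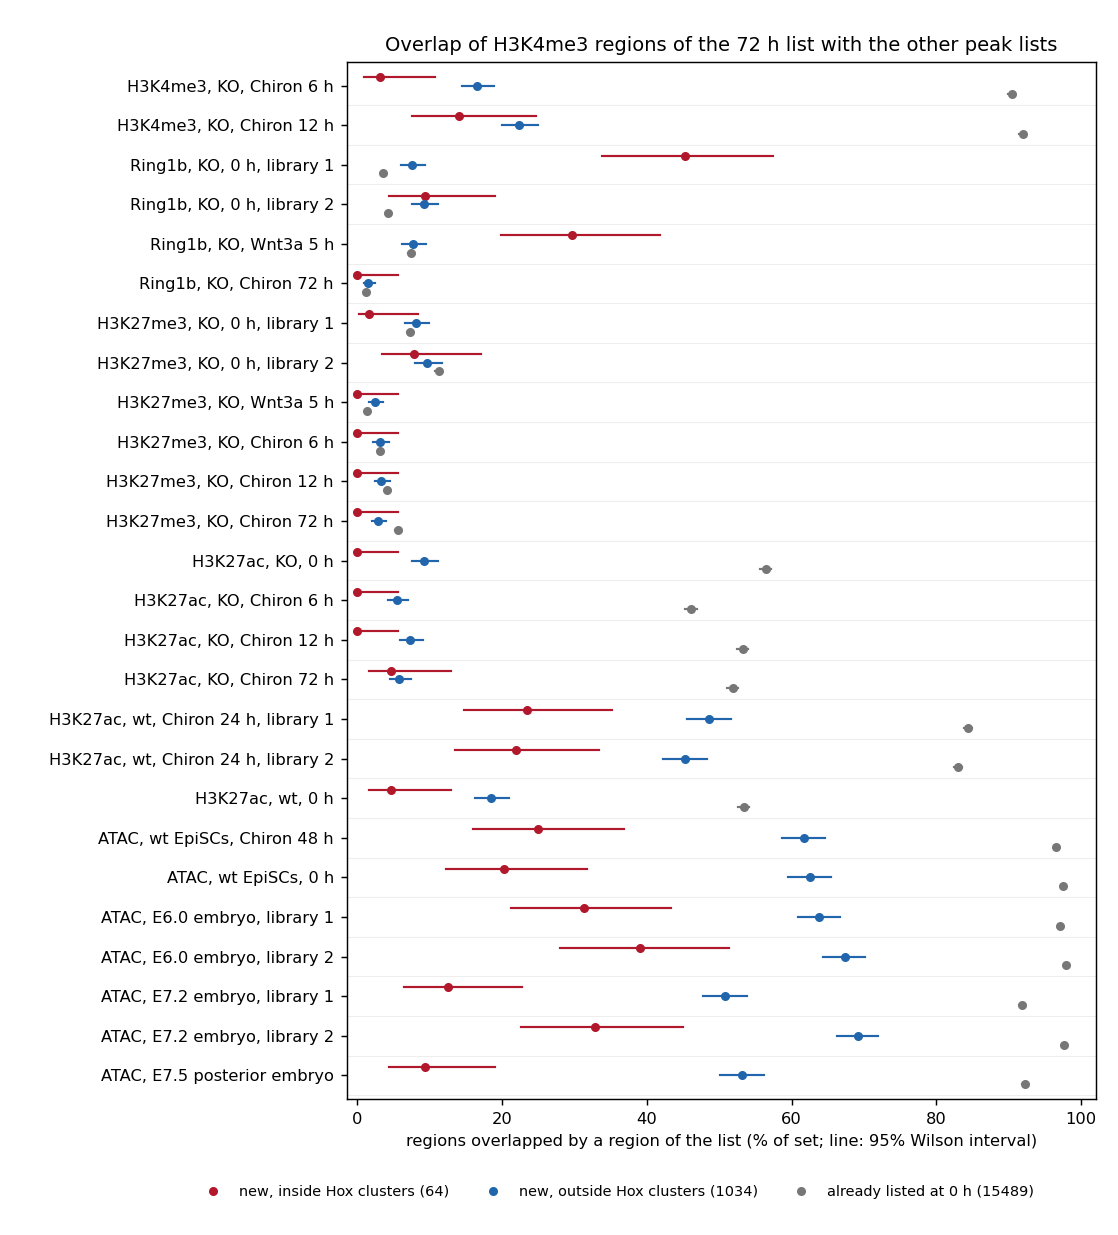
Percentage of 72 h H3K4me3 regions (x axis) that a region of each list (y axis) overlaps, for new regions inside the Hox clusters (red), new regions outside (blue) and regions already listed at 0 h (grey), with 95% Wilson intervals as lines. Outside the clusters new regions lie below regions already listed in every H3K4me3, H3K27ac and ATAC-seq list, and inside them the first Ring1b library at 0 h stands at 45.3% and the second at 9.38%.

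In wt cells chromatin was already open at many new regions before stimulation. In wt EpiSCs ATAC-seq overlapped 654 new regions at 48 h of Chiron (59.6%, 56.6 to 62.4%) and 659 at 0 h (60.0%, 57.1 to 62.9%), and all 72 h regions stood at 94.0% and 94.8%. At the summit alone the 48 h list covered 46.7% of new regions (43.8 to 49.7%) and the 0 h list 47.7% (44.8 to 50.7%). The pattern was 575 new regions open at both times, 79 at 48 h alone, 84 at 0 h alone and 360 at neither (32.8%, 30.1 to 35.6%). Regions open at 48 h alone were therefore 7.19% (5.81 to 8.88%) of the new regions, against 0.613% (0.502 to 0.749%) of regions listed at both times. Open at 0 h alone were 7.65% of new regions, against 233 of 15489 regions listed at both times (1.32 to 1.71%). Of regions listed at both times 97.5% were open at 0 h, so few could be open at 48 h alone. Those not open at 0 h were 95 open at 48 h and 295 open at neither time, against 79 and 360 new regions. Among regions not open at 0 h, new regions were therefore not the more often open at 48 h. Of the 79 open at 48 h alone, 33 had H3K27ac in both wt 24 h libraries (41.8%, 31.5 to 52.8%) and 4 in the wt 0 h list. Among the 360 open at neither time, 104 were listed for H3K4me3 at 12 h (28.9%, 24.4 to 33.8%), against 105 of the 575 open at both (18.3%, 15.3 to 21.6%).

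Embryos gave shares of the same order. At E6.0 the libraries overlapped 680 (61.9%) and 721 (65.7%) new regions, a mean of 63.8% ± 2.64. At E7.2 they overlapped 533 (48.5%) and 736 (67.0%), a mean of 57.8% ± 13.1 (SD, n = 2 each). The single library of posterior E7.5 embryos overlapped 556 (50.6%, 47.7 to 53.6%). Across all 72 h regions the E6.0 libraries gave 94.6% and 95.7%, the E7.2 libraries 88.9% and 95.5%, and the E7.5 library 89.5%. The E7.2 libraries differed by more than the means of any 2 stages, and their lists held 33881 and 72433 regions. In total 803 new regions (73.1%, 70.4 to 75.7%) were open in at least 1 of the 5 embryo libraries and 439 (40.0%) in all 5. Among regions listed at both times these shares were 98.7% and 88.9%. Of the 803, 104 were in neither EpiSC list (9.47% of new regions), against 1.11% of regions listed at both times. Another 256 new regions (23.3%, 20.9 to 25.9%) were in none of the 7 ATAC-seq lists, against 0.794% of regions listed at both times.

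New regions near a 0 h region and far from one differed in their marks. Within 500 bp of a 0 h region lay 293 new regions (26.7%), and 105 lay between 500 bp and 1 kb from one. Another 172 lay between 1 and 5 kb, 181 between 5 and 20 kb and 347 (31.6%) farther than 20 kb. The nearest class was the one most often listed early, with 36.9% (31.5 to 42.5%) at 12 h, against 14.4% (11.1 to 18.5%) of the farthest class. The farthest class was the most open, with 79.3% (74.7 to 83.2%) in the wt 0 h ATAC-seq list and 69.2% (64.1 to 73.8%) at posterior E7.5, against 45.4% (39.8 to 51.1%) and 36.5% (31.2 to 42.2%) in the nearest. H3K27ac in the first wt 24 h library was on 58.8% (53.5 to 63.8%) of the farthest and 42.3% (36.8 to 48.0%) of the nearest. Ring1b at 0 h was most frequent between 1 and 5 kb, on 20.9% (15.5 to 27.6%) in the first library and 20.3% in the second. Farther than 20 kb it was on 2.59% (1.37 to 4.86%) and 2.31% (1.17 to 4.48%). H3K27me3 at 0 h was on 17.4% and 20.3% of the class between 1 and 5 kb and on 1.15% and 1.73% of the farthest.

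**Figure D3:**
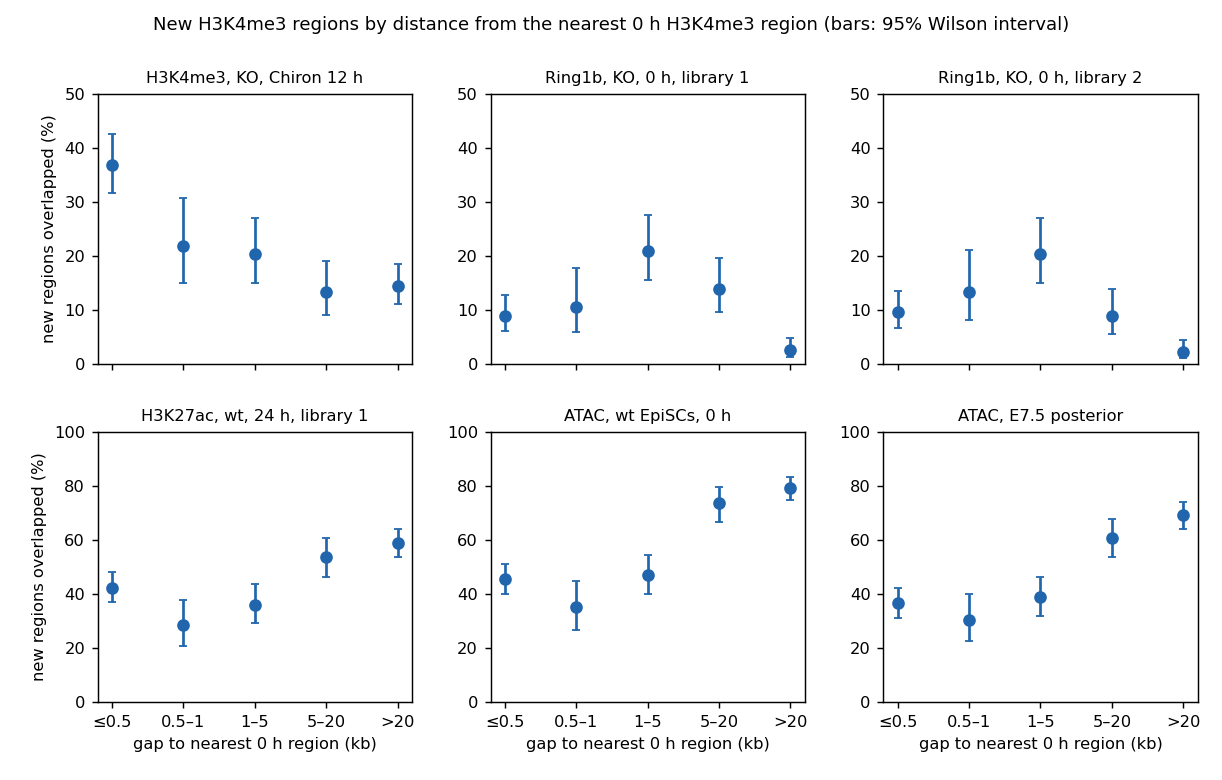
Percentage of new H3K4me3 regions overlapped by 6 lists (y axes, to 50% in the top row and 100% in the bottom row), by the gap to the nearest H3K4me3 region of the 0 h list (x axis, kb), with 95% Wilson intervals. H3K4me3 at 12 h is most frequent in the nearest class (36.9%, against 14.4% in the farthest), Ring1b at 0 h is highest between 1 and 5 kb, and ATAC-seq is highest beyond 20 kb (79.3% at 0 h).

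The 4 Hox clusters held 64 new regions (49.3 to 81.7), beside 20 that were already listed at 0 h. With regions within 1 kb of each other merged, 35 remained. HoxB on chromosome 11 held 21 (13.0 to 32.1), HoxA on chromosome 6 and HoxD on chromosome 2 held 16 each (9.15 to 26.0), and HoxC on chromosome 15 held 11 (5.49 to 19.7). Together they covered 50.8 kb, which was 12.5% of the HoxA window of 115 kb, 10.4% of the HoxB window of 187 kb, 4.81% of the HoxC window of 127 kb and 10.3% of the HoxD window of 106 kb. The windows and the gene starts were placed in mm9 to the nearest kb from knowledge of the genome. Gene order was checked against RefSeq for all 46 genes placed. Of the 32 Hox genes with a single placed start, 21 had a new region within 2 kb of it. H3K4me3 lay within 2 kb of 15 of the 32 starts in the 0 h list, 9 in the 6 h list, 14 in the 12 h list and 27 in the 72 h list, and 16 starts were listed at 72 h and not at 0 h. Those 16 were Hoxa6, Hoxa9, Hoxa10 and Hoxa11, Hoxb1, Hoxb5, Hoxb8 and Hoxb9, Hoxc8 to Hoxc12, and Hoxd8, Hoxd10 and Hoxd11. In the other direction, the starts of Hoxa4, Hoxb4, Hoxc5 and Hoxd12 were listed at 0 h and not at 72 h.

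Early listing and acetylation were at the 3′ side of the clusters. With each window split into 3 equal parts, the 3′ part held 16 new regions, the middle 28 and the 5′ part 20. Of the 9 Hox regions listed at 12 h, 7 were in the 3′ part (43.8% of its regions, 23.1 to 66.8%), 2 in the middle (7.14%, 1.98 to 22.6%) and 0 in the 5′ part (upper limit 16.1%). All 9 lay in HoxA (4) or HoxB (5), and both regions listed at 6 h were the most 3′ pair of HoxA. H3K27ac in both wt 24 h libraries was on 12 of 16 regions of the 3′ part (interval 50.5 to 89.8%), 2 of 28 of the middle (7.14%) and 0 of 20 of the 5′ part. The 14 regions with it lay at a median of 20.2% of the window from the 3′ end, with the farthest at 52.5%, and 8 of them were listed for H3K4me3 at 12 h. The 49 with it in neither library lay at a median of 63.6%. In Wnt3KO cells at 72 h only 3 Hox regions were in the H3K27ac list (4.69%, 1.61 to 12.9%), against 60 outside the clusters (5.80%, 4.53 to 7.40%), and none was at 0 h, 6 h or 12 h.

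**Figure D4:**
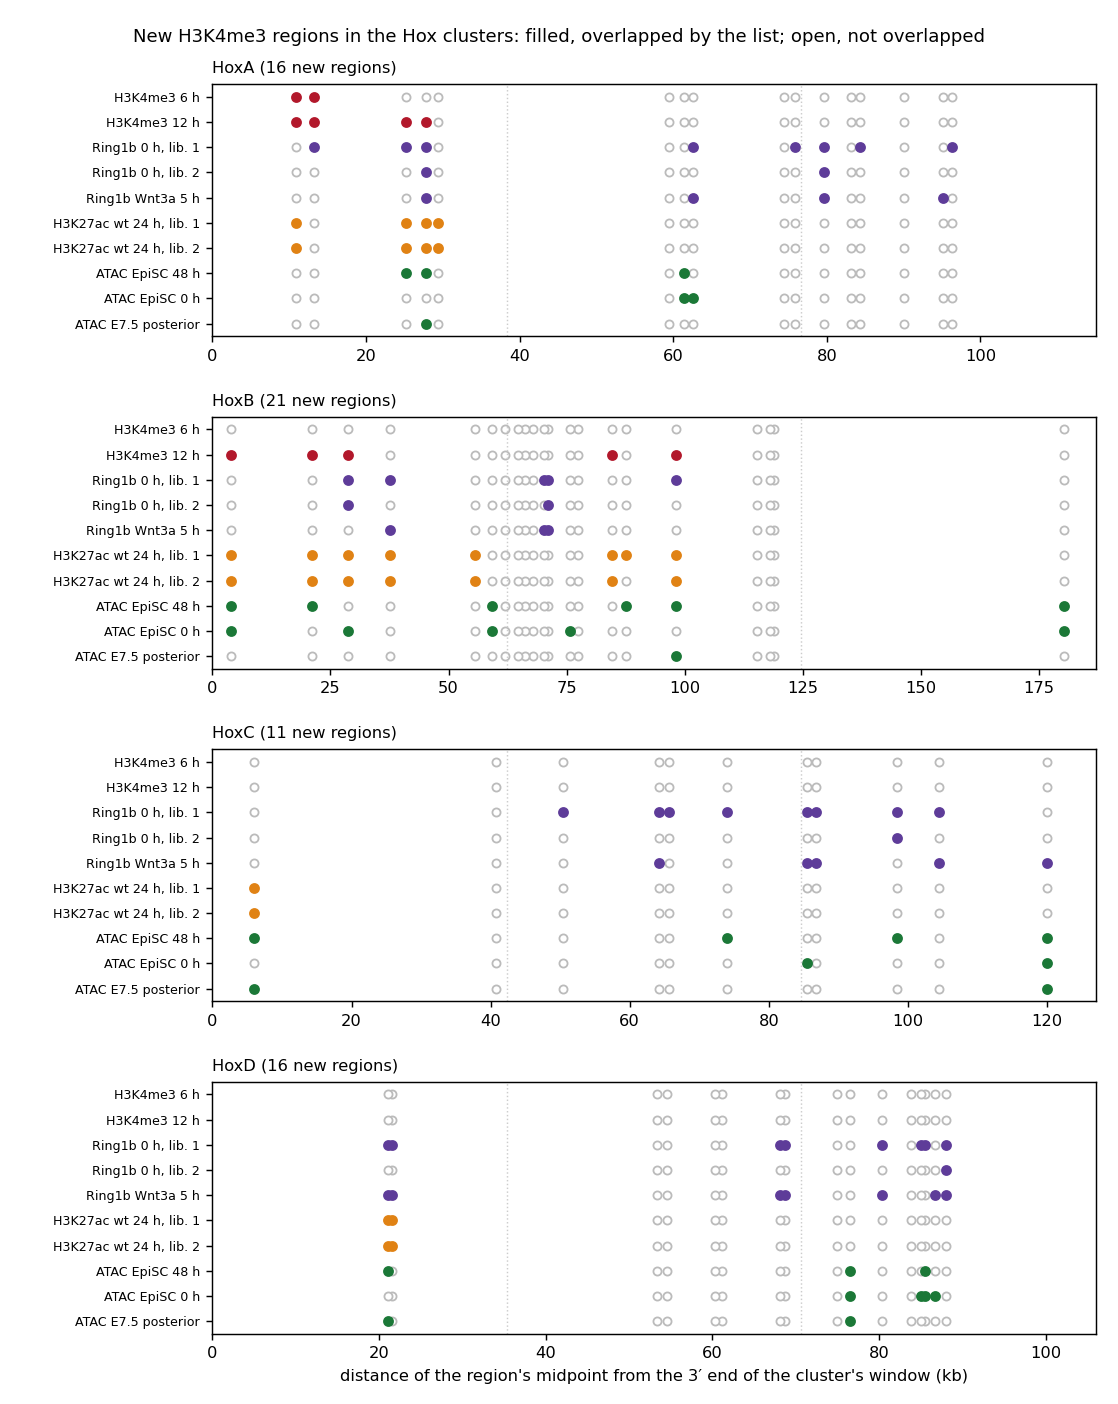
New H3K4me3 regions of the HoxA, HoxB, HoxC and HoxD windows by the distance of their midpoint from the 3′ end of the window (x axis, kb), 1 row per list, filled where a region of the list overlaps and open where none does. Dotted lines split each window into 3 equal parts. H3K4me3 at 12 h (9 filled) and H3K27ac at 24 h lie at the 3′ side, and Ring1b at 0 h is filled far more often in the first library (29) than in the second (6).

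Ring1b at 0 h differed between libraries inside the clusters more than it differed between inside and outside. The first library overlapped 29 of the 64 Hox regions (45.3%, 33.7 to 57.4%) and the second 6 (9.38%, 4.37 to 18.98%), against 78 (7.54%) and 95 (9.19%) of the 1034 outside. The difference, inside minus outside, was 37.8 points in the first library and 0.187 in the second, a mean of 18.98 with an SD of 26.6, so it lies within the spread of the 2 libraries, and with lists of equal length it was −1.09 points. All 6 regions of the second library were also in the first. The first list held 51 Ring1b regions inside the clusters and the second 33. Within 5 kb of a Ring1b region lay 46 Hox regions in the first library (71.9%, 59.9 to 81.4%) and 33 in the second (51.6%, 39.6 to 63.4%), against 124 (12.0%, 10.2 to 14.1%) and 146 (14.1%, 12.1 to 16.4%) of those outside. Among new regions, being near Ring1b at 0 h was thus more frequent inside the clusters in both libraries, while direct overlap was so in the first alone. With 51 and 33 Ring1b regions in the windows, many places there may lie within 5 kb of one, whatever their H3K4me3. How many of the 20 Hox regions listed at both times did so was not computed, so nearness cannot be called particular to new regions. Of the 20 Hox regions listed at both times, the first 0 h library overlapped 8 (40.0%, 21.9 to 61.3%). The second overlapped 4 (20.0%, 8.07 to 41.6%). In each library these intervals overlapped those of the new Hox regions. After 5 h of Wnt3a Ring1b overlapped 19 Hox regions (29.7%), and at 72 h none of the 64 was overlapped (upper limit 5.66%) or within 5 kb. The 72 h Ring1b list held 3 regions in the Hox windows in all, and it also overlapped none of the 20 Hox regions listed at both times. H3K27me3 at 0 h was on 1 and 5 of the new Hox regions and, under every stimulation listed, on none. The H3K27me3 lists at 5 h of Wnt3a and at 6 h and 72 h of Chiron held 0 regions in the Hox windows and the 12 h list 3, and none overlapped the 20 regions listed at both times.

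Open chromatin was less frequent on the Hox regions than on other new regions. ATAC-seq in wt EpiSCs overlapped 16 at 48 h (25.0%, 16.0 to 36.8%) and 13 at 0 h (20.3%, 12.3 to 31.7%), against 638 (61.7%, 58.7 to 64.6%) and 646 (62.5%, 59.5 to 65.4%) outside. Posterior E7.5 embryos overlapped 6 Hox regions (9.38%, 4.37 to 18.98%) and 550 outside (53.2%, 50.1 to 56.2%). In E6.0 embryos the share was 35.2% ± 5.52 inside and 65.6% ± 2.46 outside (SD, n = 2), and in E7.2 embryos 22.7% ± 14.4 inside and 60.0% ± 13.0 outside. The difference at E7.2 was −38.3 points in the first library and −36.3 in the second. In total 30 of the 64 (46.9%, 35.2 to 58.9%) were in no ATAC-seq list, 19 of them in the middle part.

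Among single Hox regions the strongest was at Hoxb1, the most 3′ gene of HoxB, which gives a hindbrain segment its identity. It spanned chr11:96227093-96228879 (1787 bp), with a fold of 9.92 and a −log10 p of 75.2, and the nearest 0 h region was 10702 bp away. It was listed for H3K4me3 at 12 h and not at 6 h, and had H3K27ac in both wt 24 h libraries and in no other H3K27ac list. It was open in wt EpiSCs at 48 h and at 0 h, and not at posterior E7.5. No Polycomb list overlapped it.

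The earliest Hox regions were at chr6:52110479-52111401 (fold 5.51, −log10 p 37.7) and, within 2 kb of the start of Hoxa2, at chr6:52112890-52113558 (fold 2.72). Both were listed at 6 h and 12 h and both had H3K27ac in wt cells at 0 h, and the first had it in both 24 h libraries as well. Neither was in an EpiSC ATAC-seq list. A region farther into the 3′ part, chr6:52127255-52128430 (fold 4.35), had Ring1b in both 0 h libraries and after 5 h of Wnt3a, and not at 72 h. It was listed for H3K4me3 at 12 h, had H3K27ac in both wt 24 h libraries, and was open at 48 h and at posterior E7.5 and not at 0 h.

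At Hoxb9, a trunk-level gene, the region chr11:96132832-96134728 (1897 bp, fold 5.07, −log10 p 42.3) was the most 5′ one of any cluster listed at 12 h. Ring1b was on it in the first 0 h library and in no later list. It had H3K27ac in both wt 24 h libraries and was open in wt EpiSCs at 48 h and at posterior E7.5, and not in EpiSCs at 0 h. The longest Hox region, chr11:96168522-96171752 (3231 bp, fold 3.61), was in none of the 26 other lists compared.

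In HoxC the new regions stood at gene starts. They lay within 2 kb of the starts of Hoxc13, Hoxc12, Hoxc11, Hoxc10, Hoxc9 and Hoxc8, 8 of the 11 regions in all. The strongest was at Hoxc11, a gene of the posterior axis, at chr15:102786137-102786955 (fold 8.43, −log10 p 55.3). It had Ring1b in the first 0 h library and after 5 h of Wnt3a, and was open in wt EpiSCs at 0 h and not at 48 h. It was the only Hox region of the 5′ part with H3K27ac in Wnt3KO cells at 72 h. None of the 11 was listed at 6 h or 12 h, and 8 had Ring1b in the first 0 h library.

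In HoxD, 8 of 16 new regions lay in the 5′ part, at or near Hoxd11 and Hoxd10, genes that act in the posterior axis and the limb. The pair at Hoxd11, chr2:74517343-74518652 and chr2:74518707-74519783 (folds 4.49 and 4.11), lay side by side, the first with Ring1b in both 0 h libraries and the second with H3K27me3 in both. A pair in the 3′ part, chr2:74584308-74584654 and chr2:74584721-74585130 (folds 3.62 and 3.49), had H3K27ac in both wt 24 h libraries, Ring1b in the first 0 h library and H3K27me3 in the second.

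Outside the clusters, the new region with the highest fold covered Msgn1, which encodes a transcription factor of the presomitic mesoderm. It spanned chr12:11213116-11215947 (2832 bp), with a fold of 20.4 and a −log10 p of 61.3, and the nearest 0 h region was 55559 bp away. It was listed at neither 6 h nor 12 h and no Polycomb list overlapped it. H3K27ac was on it in both wt 24 h libraries and in no other H3K27ac list. ATAC-seq listed it in wt EpiSCs at 48 h and not at 0 h, in 1 of 2 libraries at E6.0, in both at E7.2 and at posterior E7.5.

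The other regions of the 10 with the highest fold outside the clusters and more than 100 kb from an input region had folds of 12.8 to 17.8. They are given by position, since no mm9 annotation was at hand. Among these 9, 8 were in at least 6 of the 7 ATAC-seq lists, and chr9:71742016-71743484 (fold 15.9) was in none. That region was also the only one of the 10 listed at 6 h, and with chr1:79577306-79578228 (fold 17.4) one of 2 listed at 12 h. The region chr4:139387128-139388907 (fold 15.5), 261 bp from a 0 h region, had Ring1b and H3K27me3 in both 0 h libraries and Ring1b after 5 h of Wnt3a, and neither mark at 72 h. The region chr15:79757846-79758693 (fold 17.8) had H3K27ac in Wnt3KO cells at 0 h and in the first wt 24 h library, and it was open in all 7 ATAC-seq libraries.

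Of 14 genes of the posterior embryo and the Wnt response, 7 had a new region within 5 kb of the gene body, 12 regions in all. None was found at Cdx1, Cdx2, Tbx6, Wnt3a, Evx2, Fgf8 or Mixl1. The list was chosen with earlier results of these data known, so its count is a description. Of the 12, 5 were listed at 6 h and 6 at 12 h, 7 had H3K27ac in both wt 24 h libraries and 1 at 0 h, 3 had Ring1b and 4 had H3K27me3 in a 0 h library, and 6 were open at 48 h and 4 at 0 h.

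Axin2, a feedback inhibitor of the Wnt pathway, had 3 new regions in a row, all inside the gene as placed. The first, chr11:108786455-108787648 (fold 14.8), had the smallest p-value of all new regions, with a −log10 p of 99.6, and was listed at 6 h and 12 h. The second, chr11:108787721-108788845 (fold 7.87), was listed at 12 h, and the last of them, chr11:108789005-108790991 (fold 6.14), was not. H3K27ac was on the second and the last in both wt 24 h libraries and on the last in Wnt3KO cells at 72 h. All 3 lie within 100 kb of an input region. Over the whole locus H3K4me3 regions covered 9018 bp at 72 h, against 2696 bp at 0 h.

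Sp5, a zinc-finger factor induced by Wnt signals, had 3 new regions. The one just before the gene, chr2:70310634-70312163 (fold 10.4, −log10 p 47.7), lay 145 bp from a 0 h region. It had Ring1b and H3K27me3 in both 0 h libraries and in no later list, was listed at 6 h and 12 h, and had H3K27ac in both wt 24 h libraries and in Wnt3KO cells at 72 h. T, the gene of the primitive streak and notochord, had the same set of marks on a shorter region before the gene, chr17:8625489-8626019 (fold 7.44), 72 bp from a 0 h region, except that H3K27me3 was also listed at 12 h, H3K27ac was not listed in Wnt3KO cells and no ATAC-seq list overlapped it. Evx1, a homeobox gene of the posterior streak beside HoxA, also had Ring1b and H3K27me3 in both 0 h libraries and early H3K4me3 on its new region chr6:52260073-52261428 (fold 11.0). There H3K4me3 covered 5724 bp at 72 h, against 811 bp at 0 h.

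Lef1, which encodes a nuclear effector of the Wnt pathway, had a region of fold 8.40 at chr3:130811892-130812722 and one of fold 3.84 at chr3:130819173-130819543. The first lay 350 bp from a 0 h region, had H3K27me3 in the second 0 h library and H3K27ac in both wt 24 h libraries, and was open at 48 h and not at 0 h. The second was in none of the 26 lists. Eomes, a T-box gene of the early streak, had a region of fold 5.98 at chr9:118398560-118398943, 133 bp from a 0 h region and open in all 7 ATAC-seq libraries. It had H3K27ac in wt cells at 0 h and in neither 24 h library.

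New regions outside the Hox clusters were mostly alone. When those within 20 kb of each other were joined, they formed 925 groups, of which 844 (91.2%) held 1 region, 65 held 2 and 16 held 3 or more. The largest groups outside, named for their size after their values were seen, had 5 regions, at chr11:85647278-85652016, chr13:23617956-23668373 and chrX:130217260-130226616. All 5 of the first had Ring1b in a 0 h library and none was open at 48 h, while 4 of the 5 on chromosome 13 were open and none had Ring1b.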

How the data were processed

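The files are 32 lists of peaks, 1 per library, deposited by the authors in the narrowPeak layout without headers. Per the submitters' processing notes, ChIP-seq reads were aligned to mm9 with Bowtie 1.1.0 and handled with SAMtools 0.1.19, and ATAC-seq reads were trimmed with cutadapt 1.8.1 and aligned with Bowtie2 2.1.0. Peaks were called with MACS2 2.1.0, per the same notes. For the 2 wt H3K27ac libraries at 24 h and the wt H3K4me3 pair, tools were not given in the sources used here. Each list gives, in the deposited columns, the authors' integer score, the fold enrichment at the summit (a ratio), −log10 p, −log10 q and the summit's offset. Peak names show 7 processing folders, in which lists may have been made differently.

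From these lists it was computed which of the 16746 H3K4me3 regions at 72 h share at least 1 bp with each other list, in Python 3.11.15 with NumPy 2.4.6, SciPy 1.17.1 and Matplotlib 3.10.9. The overlap code was tested on simulated regions with known answers. With 1 library in most groups and no counts, no significance test was run. Intervals are 95% Wilson for shares and 95% exact Poisson for counts. Where a group has 2 libraries, mean ± SD is given. Depth is unknown, and folds and p-values were compared only within a list.

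Hox windows and gene positions were placed in mm9 to the nearest kb from knowledge of the genome, and their order was checked against RefSeq on GRCm38.p6 (46 of 46 genes in the same order). No position was compared between builds. A further 7 Hox genes without 1 known start were left out of the counts of starts. Regions named are those inside the Hox windows, the 10 with the highest fold outside them and more than 100 kb from an input region, and those within 5 kb of 14 genes of the posterior embryo and the Wnt response. Single Hox regions were picked from the first set after their values were seen. The members, gene lists and readouts were chosen with earlier results of these data known. The alternatives were an overlap of 50%, a −log10 q of at least 5, lists of equal length, a distance of 1 kb, the summit alone, merged regions, inputs kept, longer Hox windows and each library left out. Of the 57 samples, 25 are 4C-seq and were not analysed here, and 2 wt H3K4me3 libraries whose labels contradict each other were put in no group.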

Additional observations from a re-analysis of the deposited data

Results flagged for a closer look

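A pair of wt H3K4me3 lists was used in no comparison, because the labels of these libraries contradict each other on their treatment. They are given by their titles only. The library titled for 72 h of Chiron overlapped 71.2% of the new regions, and the library titled 0 h overlapped 55.3%. Inside the Hox clusters the library titled for 72 h overlapped 44 of 64 new regions (68.8%) and the library titled 0 h 12 (18.8%). Outside the clusters the values were 71.4% in the library titled for 72 h and 57.5% in the library titled 0 h. In the pair, 525 new regions were in both lists, 257 only in the one titled for 72 h, 82 only in the one titled 0 h and 234 in neither, while 97.8% of regions already listed at 0 h in Wnt3KO cells were in both. No cause was tested. Groups of 4 or more libraries did not occur, so no library could be compared with its group's range.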

How the results depend on the processing

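Of 77 values recomputed under an alternative, 42 stayed within the spread of the libraries, the counting interval or 1.5 times the count, and 35 moved beyond it. The cause was not tested. For Ring1b inside minus outside the clusters the spread ran from −7.60 to 45.6 points. Every alternative for it, from −1.09 to 37.8 points, therefore counted as within, which says little about its stability. The count of new regions was 700 at a distance of at least 1 kb and 608 after merging, and the count inside the Hox clusters was 35 after merging. With an overlap of 50%, shares were 18.3% for H3K4me3 at 12 h, 51.0% for ATAC-seq at 48 h, 41.6% at E7.5 and 8.62% for Ring1b at 0 h. With lists of equal length 869 regions were new, and the shares were 16.9% at 12 h, 44.4% at E7.5, 4.66% for Ring1b and 3.34% for H3K27me3. At 1 kb or more they were 15.6% at 12 h, 67.4% at 48 h, 59.6% at E7.5 and 6.93% for H3K27me3. At the summit alone they were 16.8%, 46.7% and 37.4% for the same first 3 lists, 8.15% for Ring1b and 7.24% for H3K27me3. Presence in both 0 h libraries gave 7.10% for Ring1b and 7.10% for H3K27me3. Leaving out 1 library gave 9.20 to 9.74% for Ring1b, 7.74 to 9.56% for H3K27me3, and 0.187 to 37.8 points for Ring1b inside minus outside the clusters. The share with H3K27ac at 72 h stayed within its interval under the alternatives run. Alternatives for 6 h, for ATAC-seq at 0 h and for H3K27ac in wt cells at 24 h were added after the data were seen. No paired analysis was possible because the results come from no test and most groups have 1 library. Without read counts, weak regions missed in a list cannot be told from absent ones.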
